A study of Mus musculus with 9 samples.

Results

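The danger signals of immunogenic cell death were followed here as 7 transcripts, those of Calr, Canx, Pdia3, Hmgb1, Hmgb2, Anxa1 and Panx1, chosen by gene symbol from the 16509 genes in the table. All 7 were found and all 7 passed the filter on low counts. The RNA came from MC38 cells, an established mouse colon carcinoma line, in 3 groups of 3 libraries. Ctrl cells received the vehicle, named DMSO in the labels and PBS in the study's methods. Cu-Cys cells received nanoparticles of copper and cystine. Cadict cells received the complete nanodrug, in which copper and cystine are joined by glucose oxidase and by GE11, a peptide that targets EGFR. Its columns carry another abbreviation, and their match to Cadict was inferred from these components. The same untreated line underlies all 3 groups, and no dose, treatment time or source of the replicates is given for these libraries, so the p-values measure the spread between libraries, which may be technical.

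Each library held between 17905771 and 18293056 counts. The scaling of libraries differed strongly between groups: TMM factors, which correct library totals for a few abundant transcripts, were 1.26 to 1.27 in Ctrl, 1.21 in Cu-Cys and 0.640 to 0.665 in Cadict. The 100 most abundant genes took 17.2 to 17.4% of counts in Ctrl, 17.9 to 18.2% in Cu-Cys and 29.8 to 31.1% in Cadict. Values are given below as TMM-scaled CPM, which are counts divided by the product of library total and TMM factor, on a common scale. Where the scaling decides a direction, they are also given as a share of library counts, which uses the library total alone. Of the epithelial markers that fit the labelled line, Epcam (0 to 4 counts per library), Krt18 (0 to 2), Cldn7 (0 to 2), Vil1 (0 to 5) and Krt8 (1 to 17) were at or near 0, whereas Cdh1 (65 to 152 counts) and Krt19 (14 to 131) were detected in every library. Over the 7 epithelial markers in the table, the summed level was 5.32 to 6.83 CPM in Ctrl, 3.97 to 4.38 in Cu-Cys and 24.1 to 26.2 in Cadict, most of it from Cdh1 (means of 4.86, 3.12 and 12.8 CPM) and Krt19 (1.05, 0.841 and 10.8 CPM). The 6 fibroblast markers summed to 618 to 645, 341 to 349 and 133 to 146 CPM in the same order, mostly Col1a2. The 6 leukocyte markers in the table reached 3.33 to 3.72, 2.47 to 2.91 and 16.1 to 18.7 CPM, nearly all from Cd68, with Ptprc at 1 to 4 counts. The 4 endothelial markers stayed at 0.915 to 3.61 CPM in all 3 groups. Cadict replicate 2 stood furthest from its group, with a chi-square per degree of freedom over genes of 14.7 and 23.1 to its companions, beside 1.88 to 4.53 for the other pairs within a group. These marker levels move with treatment, and their part in the results below was not tested.

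Cells that die in an immunogenic way expose or release molecules that are normally hidden inside them. Calreticulin, a lectin chaperone of the endoplasmic reticulum (ER), reaches the cell surface together with the disulfide isomerase encoded by Pdia3 and acts as an engulfment signal for phagocytes. HMGB1, a nuclear DNA-binding protein, leaks out and engages Toll-like receptors, annexin A1 guides dendritic cells to the dying cell through a formyl peptide receptor, and ATP leaves through channels such as pannexin 1. The study read calreticulin exposure and HMGB1 release at the protein level. The table measures mRNA only, and in these bulk samples fewer cells of a kind and less RNA per cell cannot be told apart.

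The transcripts behind these signals did not move as one group. On the TMM scale, Canx, Pdia3, Hmgb1 and Anxa1 rose in Cadict cells against Ctrl, Hmgb2 and Panx1 fell, and Calr did not pass the test. Among the 6 that passed, only the falls of Hmgb2 and Panx1 kept their direction under all 11 settings of scaling, filter, tool and unit. Calr was lower in 9 of these settings, past the test in 7, and higher in 2 without passing. "Rose" and "fell" stand for a Benjamini-Hochberg adjusted p of at most 0.05 in edgeR's quasi-likelihood test over all 11949 genes tested. "Called" adds the study's threshold: the level must differ at least 2-fold, with 0.001 as the highest adjusted p allowed. In Cadict against Ctrl, 4 members rose and 2 fell, where 40.6% of all genes tested rose and 47.1% fell. Canx and Anxa1 were called higher, beside 20.7% of all genes, and 0 members were called lower, beside 27.1%. The members' median log2 fold change was 0.69 and that of all genes −0.13.

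In Cu-Cys against Ctrl, Canx and Panx1 rose and Calr fell, beside 22.6% of all genes that rose and 22.4% that fell. Without Cadict replicate 2, which enters the shared estimate of spread, Hmgb1, Hmgb2 and Anxa1 also rose there (edgeR adjusted p = 0.033, 0.00401 and 0.0139), and without Cadict replicate 3 Hmgb2 and Anxa1 did (0.0342 and 0.0263). No member was called in either direction, where 0.167% of all genes were called higher and 1.47% lower. The 7 log2 fold changes lay between −0.26 and 0.21, with a median of 0.13 beside 0.0067 for all genes. In Cadict against Cu-Cys, 5 members rose and 2 fell, beside 40.3% and 45.6% of all genes, and Anxa1 alone was called higher, beside 18.6% called higher and 23.6% called lower. With 7 members, 1 gene moves such a share widely, and the 3 comparisons share libraries.

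**Figure D1:**
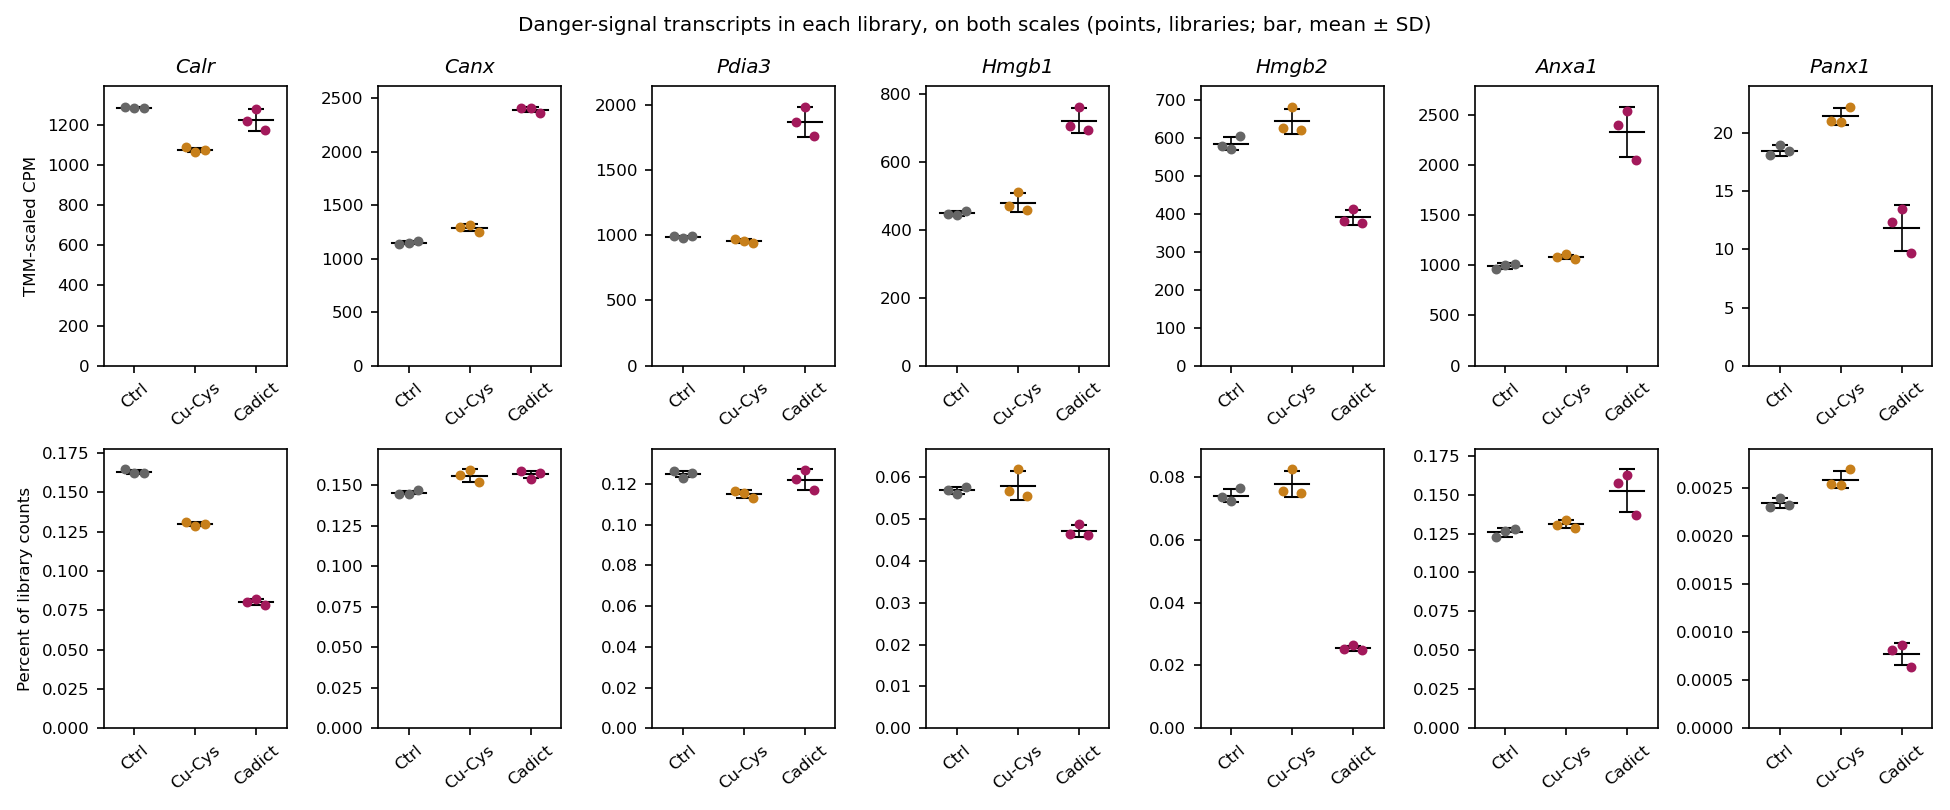
Level of each danger-signal transcript in the 9 libraries, as TMM-scaled CPM (upper row) and as percent of library counts (lower row). Points are libraries and bars the mean ± SD of 3. Hmgb2 and Panx1 are lowest in the Cadict libraries in both rows, whereas Canx, Pdia3, Hmgb1 and Anxa1 stand far above Ctrl in the upper row. In the lower row Canx and Anxa1 lie less far above Ctrl, Pdia3 overlaps it, and Hmgb1 and Calr lie below it.

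Scaling set the direction of most Cadict changes. When libraries were scaled by their totals alone, the median log2 fold change of all genes in Cadict against Ctrl moved from −0.13 to −1.08, and those of the members moved with it. Canx was then 0.11, Pdia3 −0.032, Hmgb1 −0.27, Anxa1 0.28 and Calr −1.03 on the log2 scale. Hmgb2 stood at −1.54 and Panx1 at −1.60. On the deposited TPM values, which correct for transcript length and library total, on the log2(TPM + 1) scale, the log2 fold change of all 7 members was below 0 in this comparison, from −1.88 for Hmgb2 to −0.088 for Anxa1. With DESeq2's size factors the values lay close to the TMM ones, and Calr alone changed sign, to 0.047. Between Cu-Cys and Ctrl the median of all genes moved only from 0.0067 to −0.061 under library totals. Between Cadict and Cu-Cys it moved from −0.099 to −0.98. Without Cadict replicate 2, the TMM log2 fold changes in Cadict against Ctrl were 1.06 for Canx, 0.88 for Pdia3, 0.64 for Hmgb1, −0.63 for Hmgb2, 1.17 for Anxa1 and −0.75 for Panx1.

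**Figure D2:**
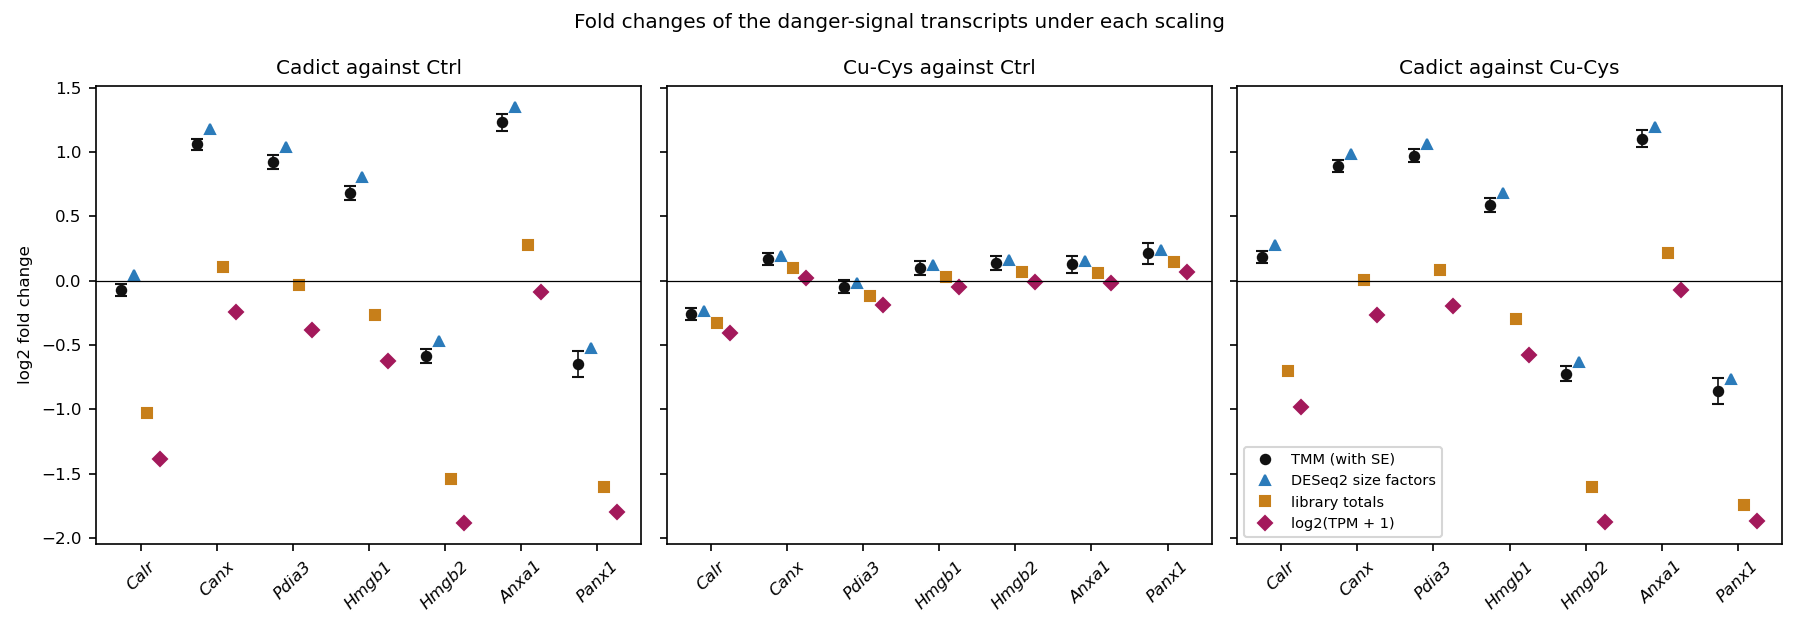
Log2 fold change of each danger-signal transcript in the 3 comparisons, with TMM scaling (circles with SE), DESeq2 size factors, library totals and log2(TPM + 1). In both Cadict comparisons only Hmgb2 and Panx1 lie below 0 under all 4 scalings shown, and Canx in Cadict against Ctrl ranges from −0.24 to 1.18.

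Measured per length, in TPM, Anxa1 and Calr were the most abundant members in Ctrl cells. Anxa1 stood at 1991 ± 24.7 TPM (SD, n = 3) and Calr at 1705 ± 34.2, followed by Pdia3 at 909 ± 20.1, Canx at 618 ± 5.62, Hmgb2 at 528 ± 13.5 and Hmgb1 at 379 ± 6.59. Panx1 was rare, at 22.6 ± 0.407 TPM. No neighbours in this order overlapped between libraries, and the order was the same in Cu-Cys. In Cadict the order changed: Pdia3 (664 to 715 TPM) and Calr (614 to 680 TPM) overlapped, and Hmgb1 (234 to 257 TPM) lay above Hmgb2 (135 to 149 TPM). By mean TPM among 16509 genes, Calr ranked 90 in Ctrl, 119 in Cu-Cys and 239 in Cadict, and Hmgb2 ranked 271, 270 and 918, whereas Anxa1 moved only from 72 to 102.

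Calreticulin, calnexin and the Pdia3 product work together in the ER: the 2 lectins hold newly made glycoproteins and the isomerase shuffles their disulfide bonds. Calr (Entrez Gene 12317) lies at chr8:84841850-84846934, Canx (12330) at chr11:50293961-50325673, both on the minus strand, and Pdia3 (14827) at chr2:121413775-121438687 on the plus strand of GRCm38, the build of the annotation used. The table itself holds no coordinates. Their promoters are shown because genes of ER folding often share an ER stress response element (ERSE), read by the stress-activated factors ATF6 and XBP1. The element searched was CCAAT, 9 further bases and CCACG on either strand. Capitals mark it in the RefSeq promoters (GRCm38.p6), which run from 250 bases before to 50 bases after the start of the gene:
Calr promoter, chr8:84846882-84847181, minus strand: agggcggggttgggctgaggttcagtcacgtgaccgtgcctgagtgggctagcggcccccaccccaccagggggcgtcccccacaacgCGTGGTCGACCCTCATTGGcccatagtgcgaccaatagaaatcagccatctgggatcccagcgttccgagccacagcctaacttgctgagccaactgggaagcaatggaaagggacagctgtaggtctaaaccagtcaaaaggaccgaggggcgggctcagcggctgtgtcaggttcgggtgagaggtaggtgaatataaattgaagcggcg
Canx promoter, chr11:50325624-50325923, minus strand: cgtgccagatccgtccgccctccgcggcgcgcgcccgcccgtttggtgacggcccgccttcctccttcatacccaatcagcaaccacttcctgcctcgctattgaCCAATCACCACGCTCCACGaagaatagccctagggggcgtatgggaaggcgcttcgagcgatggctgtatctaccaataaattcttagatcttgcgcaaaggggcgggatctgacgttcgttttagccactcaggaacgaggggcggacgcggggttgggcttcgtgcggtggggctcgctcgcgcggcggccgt
Pdia3 promoter, chr2:121413652-121413951, plus strand: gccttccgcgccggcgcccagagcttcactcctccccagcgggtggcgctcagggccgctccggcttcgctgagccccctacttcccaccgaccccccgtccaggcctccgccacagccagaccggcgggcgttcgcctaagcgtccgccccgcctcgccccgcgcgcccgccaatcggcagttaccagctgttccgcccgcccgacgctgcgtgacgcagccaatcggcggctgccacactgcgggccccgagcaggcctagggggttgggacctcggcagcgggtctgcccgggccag
The Calr element spans −162 to −144 from the start, on the strand opposite to the gene, and the Canx element −145 to −127 on the gene's own strand. Of 32851 mouse promoters in the table, 0.119% hold the element. The letters do not occur in the Pdia3 window nor in those of the other 4 members. A related element, ERSE-II (ATTGG, 1 base, CCACG, in 0.0365% of promoters), was in no member's window, and neither were a heat shock pair (GAA, 2 bases, TTC; 7.86%) or a C/EBP-ATF element (TGATG, 1 base, AAT; 0.965%). An antioxidant element (TGAC, 3 bases, GC; 12.4% of promoters) occurred in the windows of Calr and Pdia3, and a metal response core (TGCGC or TGCAC, 1 base, C; 25.7%) in those of Hmgb1 and Panx1. No motif found overlapped another. A match of letters is a description and not a binding site.

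Calr stood at 1293, 1288 and 1285 TMM-scaled CPM in the Ctrl libraries, at 1089.8, 1067 and 1075 in Cu-Cys, and at 1221, 1282 and 1176 in Cadict. The Cu-Cys libraries lay below all others, and the Cadict libraries lay just below Ctrl. Calr fell in Cu-Cys by 0.26 on the log2 scale (SE 0.046; edgeR adjusted p = 0.000419), and it was lower there under all 11 settings, each past the test. In Cadict against Ctrl its log2 fold change of −0.072 (95% interval −0.17 to 0.028; edgeR adjusted p = 0.158) did not pass. It passed without Cadict replicate 2 (−0.11; edgeR adjusted p = 0.0114), with no filter on low counts (−0.15; 0.00823) and with at least 10 counts in every library (−0.13; 0.014). As a share of library counts, Calr took 0.165, 0.163 and 0.162% in Ctrl, 0.131, 0.129 and 0.130% in Cu-Cys and 0.0802, 0.0820 and 0.0782% in Cadict. On that scale Cadict was the lowest group, with a log2 fold change of −1.03 against Ctrl (edgeR adjusted p = 1.21e-12). Against Cu-Cys, Calr rose by 0.19 on the log2 scale with TMM (SE 0.047; edgeR adjusted p = 0.00156) but was 0.097 with no filter (edgeR adjusted p = 0.0902) and −0.70 with library totals.

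Canx, the membrane-bound partner lectin, stood at 1135, 1146 and 1162 CPM in Ctrl, at 1296, 1319 and 1253 in Cu-Cys and at 2413, 2406 and 2363 in Cadict. The 3 groups did not overlap, with Cadict highest. Cadict against Ctrl gave a log2 fold change of 1.06 (SE 0.045; edgeR adjusted p = 2.88e-12), Cu-Cys against Ctrl gave 0.17 (SE 0.044; edgeR adjusted p = 0.00634) and Cadict against Cu-Cys 0.89 (SE 0.044; edgeR adjusted p = 2.8e-11). Its share of library counts was 0.145, 0.145 and 0.147% in Ctrl and 0.158, 0.154 and 0.157% in Cadict, a log2 difference of 0.11 (edgeR adjusted p = 0.0293). With library totals, neither the difference of Cu-Cys from Ctrl (0.099; edgeR adjusted p = 0.0762) nor that of Cadict from Cu-Cys (0.0076; 0.871) passed.

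Pdia3 stood at 990.4, 975 and 992 CPM in Ctrl, at 968, 956 and 936 in Cu-Cys, and at 1866, 1984 and 1756 in Cadict. Every Cadict library lay above the other 6, while the Cu-Cys libraries lay just below Ctrl. Pdia3 rose in Cadict by 0.92 on the log2 scale over Ctrl (SE 0.051; edgeR adjusted p = 7.56e-11) and by 0.97 over Cu-Cys (SE 0.051; edgeR adjusted p = 5.11e-11). Cu-Cys differed from Ctrl by −0.048 (95% interval −0.16 to 0.060; edgeR adjusted p = 0.467). The difference was below 0 under all 11 settings. It passed the test in 3, those on the TPM scale (−0.19; limma adjusted p of 0.00936 to 0.0118). As a share of counts, Pdia3 took 0.126, 0.123 and 0.125% in Ctrl and 0.123, 0.127 and 0.117% in Cadict, which overlap. With library totals the difference of Cadict from Cu-Cys was 0.085 (edgeR adjusted p = 0.0951). Its exons overlap those of Catsper2 on the opposite strand, which had 19 to 38 counts per library.

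A ratio of 2 transcripts within a library is free of library scaling. These pairs were chosen after the values were seen, so the ratios are given with no test. Calr counts per Canx count were 1.14, 1.12 and 1.11 in Ctrl, 0.841, 0.809 and 0.858 in Cu-Cys, and 0.506, 0.533 and 0.498 in Cadict. The groups did not overlap. Calr had more counts than Canx in Ctrl and fewer in Cu-Cys and Cadict. In TPM, which corrects for transcript length, Calr stayed above Canx, with mean ratios of 2.76, 2.05 and 1.25 in the same order. Calr per Pdia3 averaged 1.31 ± 0.0130 (SD, n = 3) in Ctrl, 1.13 ± 0.0170 in Cu-Cys and 0.657 ± 0.0119 in Cadict. The ratio of Pdia3 to Canx was 0.859 ± 0.0116 in Ctrl, 0.740 ± 0.0128 in Cu-Cys and 0.781 ± 0.0411 in Cadict, and the libraries of Cu-Cys and Cadict overlapped. The log2 differences of these ratios computed from TPM lay within 0.01 of those from counts.

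**Figure D3:**
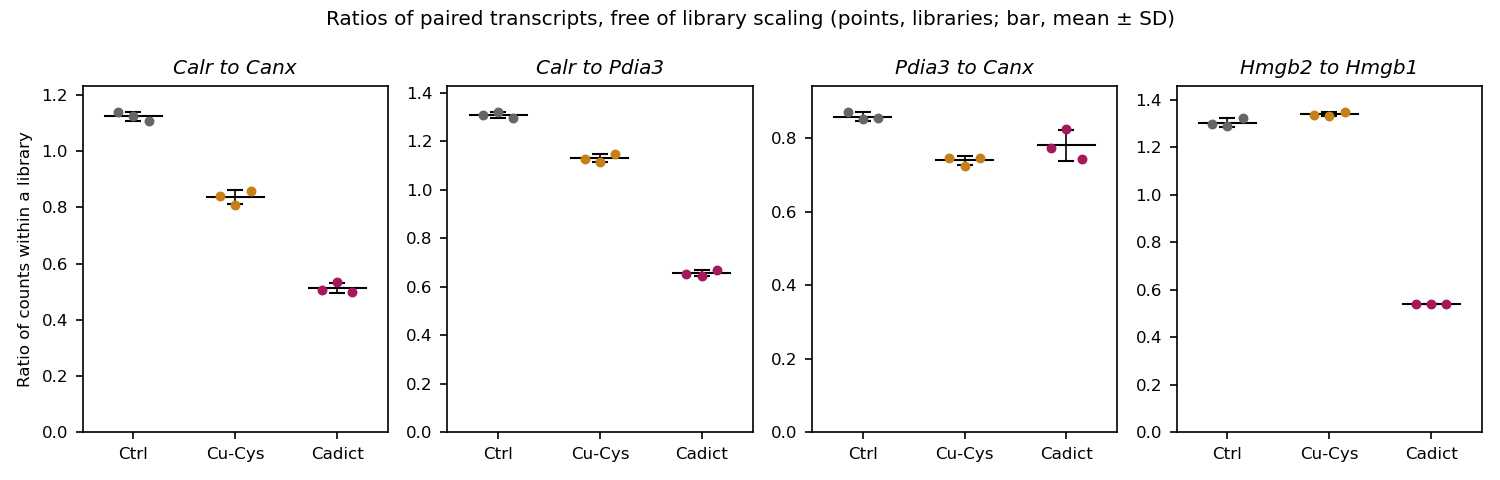
Ratios of counts of 2 danger-signal transcripts within each library, by group. Points are libraries and bars the mean ± SD of 3. Calr to Canx averages 1.12 in Ctrl and 0.512 in Cadict, and Hmgb2 to Hmgb1 averages 1.304 in Ctrl and 0.541 in Cadict, while Pdia3 to Canx stays between 0.725 and 0.872 in all 9 libraries.

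The remaining genes of the ER lectin chaperone cycle also moved in both directions. Of 21 tested, 15 rose and 6 fell in Cadict against Ctrl, where 40.6% of all genes rose and 47.1% fell. Their median log2 fold change was 0.66, beside −0.13 for all genes. With library totals 4 rose and 15 fell, and the median was −0.29, beside −1.08 for all genes. In Cu-Cys against Ctrl, 5 rose, 4 fell and 12 did not pass (median 0.060), where 22.6% of all genes rose and 22.4% fell. In Cadict against Cu-Cys, 15 rose and 5 fell (median 0.49, or −0.39 with library totals), beside 40.3% and 45.6% of all genes. These shares apply to every list below. Prkcsh, the regulatory subunit of glucosidase II, stood at 158 to 166 CPM in Ctrl and 502 to 563 in Cadict, a log2 fold change of 1.69 (SE 0.065; edgeR adjusted p = 1.01e-12). Mogs, the glucosidase that removes the first glucose from a new glycan, went the other way, from 74.2 to 81.9 CPM in Ctrl to 12.3 to 13.8 in Cadict, 5.85-fold lower. Sdf2l1, an ER chaperone cofactor, fell by 2.29 on the log2 scale, and Pdia4, another disulfide isomerase, fell by 1.79. In Cu-Cys, Sdf2l1 fell by 0.34 and Pdia4 by 0.19, while Mogs and Prkcsh did not pass. All 4 kept their direction in Cadict against Ctrl with library totals (Prkcsh 0.73, Mogs −3.50, Sdf2l1 −3.24 and Pdia4 −2.75).

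Of the 20 genes in this list that have a promoter in the RefSeq table, 4 hold the ERSE letters found in Calr and Canx. They were chosen by this match and not by their change. Hspa5, the main ER chaperone BiP, had a log2 fold change of 0.82 in Cadict against Ctrl with TMM and −0.13 with library totals. Hsp90b1, the ER form of HSP90, had 0.30 and −0.66. Pdia6, a disulfide isomerase, had −0.17 and −1.13, and Ero1b, an oxidase that recharges disulfide isomerases, had −1.08 and −2.03. All 4 passed the test with TMM, 2 in each direction. Calr and Canx, with the same letters, were at −0.072 and 1.06 with TMM. With library totals Calr and the 4 list genes lay below 0, and Canx was at 0.11, or −0.24 on the log2(TPM + 1) scale.

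Genes that carry calreticulin to the surface or read it there moved in both directions as well. Of 13 tested, 7 rose and 4 fell in Cadict against Ctrl (median 0.15), beside 40.6% and 47.1% of all genes. With library totals 4 rose and 9 fell (median −0.80, beside −1.08 for all genes). In Cu-Cys 5 rose and 4 fell against Ctrl (median 0.047). Between Cadict and Cu-Cys, 7 rose and 5 fell (median 0.25; −0.63 with library totals). The 4 that fell in Cadict against Ctrl with TMM were Eif2ak3 (−1.65 on the log2 scale), Sirpa (−1.56), Bak1 (−1.09) and Casp8 (−0.59). The 4 named here by size rose in Cadict, and they kept that direction with library totals and on the TPM scale. Bax, which opens the mitochondrial membrane in apoptosis, stood at 23.7, 26.8 and 27.4 CPM in Ctrl, 39.5, 41.8 and 42.4 in Cu-Cys, and 103, 128 and 101 in Cadict. Bax was stepwise higher across the groups without overlap, by 0.67 in Cu-Cys (SE 0.088; edgeR adjusted p = 3.1e-05) and by 2.09 in Cadict (SE 0.087; edgeR adjusted p = 2.5e-12) on the log2 scale against Ctrl. Bcap31, an ER membrane protein cut by caspase 8, stood at 94.0 to 95.5 CPM in Ctrl and 365 to 407 in Cadict. Eif2s1, the translation factor subunit phosphorylated in the stress response that precedes calreticulin exposure, went from 177 to 187 CPM in Ctrl to 641 to 683 in Cadict. Atp2a2, the calcium pump that fills the ER store, went from 306 to 320 CPM to 968 to 1181. In Cu-Cys these 3 also rose, by 0.19, 0.32 and 0.34 on the log2 scale, and the rise of Bcap31 there did not pass with library totals (edgeR adjusted p = 0.0533). Stc1, a secreted inhibitor of calreticulin exposure, had at most 1 count per library and was not tested.

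HMGB1 and HMGB2 are close relatives that bend DNA in the nucleus, and both serve as alarmins outside the cell. Hmgb1 (Entrez Gene 15289) lies at chr5:149046702-149184489 on the minus strand, and Hmgb2 (97165) at chr8:57511907-57515999 on the plus strand of GRCm38. Of the 50-base stretches of their annotated transcripts, 22.7% in Hmgb1 and 18.7% in Hmgb2 also occur in other genes. For Hmgb1 these are 132 genes, 129 of them pseudogenes, and for Hmgb2 they are 9, of which 8 are pseudogenes. The submitters' notes name RSEM, which divides shared reads by estimated probability, without stating its role, so both levels carry the uncertainty of such a division. Hmgb1 exons also overlap those of Mm2pr on the same strand and of Uspl1 on the opposite strand, and Uspl1 had 546 to 1274 counts per library.

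Hmgb1 stood at 446, 443 and 457 CPM in Ctrl, at 469, 512 and 459.8 in Cu-Cys, and at 707, 763 and 695 in Cadict. The Cadict libraries lay above the other 6. Hmgb1 rose in Cadict by 0.69 on the log2 scale over Ctrl (SE 0.054; edgeR adjusted p = 7.05e-09) and by 0.59 over Cu-Cys (SE 0.054; edgeR adjusted p = 5.19e-08). Cu-Cys differed from Ctrl by 0.098 (95% interval −0.017 to 0.21; edgeR adjusted p = 0.154). As a share of counts the Cadict libraries were the lowest, at 0.0465, 0.0488 and 0.0462% beside 0.0568, 0.0559 and 0.0576% in Ctrl, and there the log2 fold change was −0.27 (edgeR adjusted p = 0.000139).

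Hmgb2 stood at 578, 572 and 605 CPM in Ctrl, at 627, 682 and 621 in Cu-Cys, and at 382, 412 and 377 in Cadict. The Cadict libraries were below all others, and the Cu-Cys libraries were slightly above Ctrl. Hmgb2 fell by 0.58 on the log2 scale in Cadict against Ctrl (SE 0.055; edgeR adjusted p = 5.27e-08) and by 0.72 against Cu-Cys (SE 0.055; edgeR adjusted p = 4.45e-09). As a share of counts it took 0.0737, 0.0722 and 0.0763% in Ctrl and 0.0251, 0.0264 and 0.0250% in Cadict. The difference of Cu-Cys from Ctrl, 0.14 on the log2 scale, missed the threshold (95% interval 0.022 to 0.25; edgeR adjusted p = 0.0502) and passed with no filter or with DESeq2's size factors. Within libraries, Hmgb2 counts per Hmgb1 count were 1.296, 1.291 and 1.325 in Ctrl, 1.34, 1.33 and 1.35 in Cu-Cys, and 0.540, 0.541 and 0.542 in Cadict. The pair therefore changed order in Cadict whatever the scaling, and the ratio varied little among the 3 Cadict libraries.

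Of 11 other genes of high mobility group (HMG) proteins, HMGB1 export and receptors tested, 4 rose and 6 fell in Cadict against Ctrl (median −0.68). There 40.6% of all genes rose and 47.1% fell. With library totals 1 rose and 8 fell (median −1.64, beside −1.08 for all genes). In Cu-Cys 5 rose and 2 fell (median 0.11). Against Cu-Cys, 4 rose and 7 fell (median −1.15; −2.04 with library totals). Hmgb3, a relative of Hmgb1 and Hmgb2, stood at 61.2 to 63.6 CPM in Ctrl, 61.7 to 66.4 in Cu-Cys and 20.3 to 25.8 in Cadict. It fell by 1.48 on the log2 scale in Cadict against Ctrl (SE 0.077; edgeR adjusted p = 3.77e-11). It shares 25% of its 50-base stretches with 14 pseudogenes. The acetyltransferase gene Kat2b fell by 1.62 and Parp1, whose product marks DNA breaks, fell by 1.22, both also lower with library totals. Hmgn1, a nucleosome-binding protein that can act as an alarmin, rose by 1.15 with TMM but was −0.18 on the log2(TPM + 1) scale. In Cu-Cys, Kat2b fell by 0.18. This fall did not pass the test without Ctrl replicate 1 or 3 or Cu-Cys replicate 1 or 3 (edgeR adjusted p of 0.0757 to 0.155). The other 3 of these genes did not pass in Cu-Cys. Among the Toll-like receptors that bind HMGB1, added here after their values were seen, Tlr4 rose by 0.60 on the log2 scale with TMM but was −0.36 with library totals. Tlr2, at a mean of 4.44 CPM over the 9 libraries, fell by 3.98 in Cadict (SE 0.24; edgeR adjusted p = 2.33e-10), or by 4.93 with library totals. Of the other receptors, Ager (RAGE) had 0 to 12 counts and Cd24a 0 to 2, and neither was tested.

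Annexin A1 is a calcium-dependent membrane-binding protein whose gene (Entrez Gene 16952) lies at chr19:20373428-20390944 on the minus strand of GRCm38. Anxa1 stood at 962, 1002 and 1014 CPM in Ctrl, at 1085, 1109 and 1062 in Cu-Cys, and at 2401, 2544 and 2055 in Cadict. The 3 Cadict libraries were spread more widely than those of the other groups, and all lay above the other 6. Anxa1 was called in both Cadict comparisons, with a log2 fold change of 1.23 against Ctrl (SE 0.066; edgeR adjusted p = 5.47e-11) and 1.10 against Cu-Cys (SE 0.066; edgeR adjusted p = 2.45e-10). Cu-Cys against Ctrl gave 0.13 (95% interval −0.011 to 0.27; edgeR adjusted p = 0.123). Its share of counts was 0.122, 0.127 and 0.128% in Ctrl and 0.158, 0.163 and 0.137% in Cadict, a log2 fold change of 0.28 (edgeR adjusted p = 0.000333). On the TPM scale Cadict and Ctrl overlapped, at 1793 to 1990 and 1965 to 2014 TPM.

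Of 13 other annexins and S100 partners, 9 rose and 3 fell in Cadict against Ctrl on the TMM scale. The median was 0.89, beside −0.13 for all genes tested, of which 40.6% rose and 47.1% fell. With library totals 5 rose and 6 fell, and the median was −0.066, beside −1.08 for all genes. In Cu-Cys 2 rose and 2 fell (median 0.015). Against Cu-Cys, 10 rose and 2 fell (median 0.76; −0.13 with library totals). Anxa5, which binds exposed phosphatidylserine, stood at 512 to 520.0 CPM in Ctrl and 1579 to 1800 in Cadict, a log2 fold change of 1.71 with TMM, 0.76 with library totals and 0.40 on the log2(TPM + 1) scale. Anxa11 (1.58), Anxa3 (1.43) and Anxa7 (1.33) rose too on the TMM scale, and Anxa3 and Anxa7 did not pass on the TPM scale. Of these, 16.2% of the stretches of Anxa11 occur in other genes. In Cu-Cys, Anxa7 rose by 0.28 and Anxa5 by 0.14, the latter lost without any one of the Ctrl or Cu-Cys libraries (edgeR adjusted p of 0.0589 to 0.0973). The formyl peptide receptors that read annexin A1, Fpr1 and Fpr2, had at most 5 counts per library and were not tested.

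Pannexin 1 forms a membrane channel that caspases open to let ATP out, and its gene (Entrez Gene 55991) lies at chr9:15002128-15045478 on the minus strand of GRCm38. Panx1 stood at 18.1, 19.0 and 18.4 CPM in Ctrl, at 21.1, 21.0 and 22.3 in Cu-Cys, and at 12.4, 13.5 and 9.66 in Cadict. The Cadict values rest on 146, 155 and 115 counts, the smallest of any member. The 3 groups did not overlap, with Cu-Cys highest and Cadict lowest. Panx1 fell by 0.65 on the log2 scale in Cadict against Ctrl (SE 0.099; edgeR adjusted p = 1.68e-05) and by 0.86 against Cu-Cys (SE 0.098; edgeR adjusted p = 6.54e-07). The rise in Cu-Cys of 0.21 (SE 0.083; edgeR adjusted p = 0.0481) was marginal. It missed the threshold when any one of the Ctrl or Cu-Cys libraries, or Cadict replicate 1, was left out (edgeR adjusted p up to 0.156). It also missed it with at least 10 counts in every library (log2 fold change 0.19; edgeR adjusted p = 0.076) and with library totals (0.14; 0.156). Panx2 and Panx3 had at most 1 and 2 counts.

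Of 15 other genes of ATP release and extracellular ATP, 6 rose and 8 fell in Cadict against Ctrl (median −0.27). The shares of all genes were close to this, at 40.6% and 47.1%. With library totals 2 rose and 12 fell (median −1.22, beside −1.08 for all genes). In Cu-Cys 2 rose and 3 fell (median 0.0026). Cadict against Cu-Cys gave 8 that rose and 6 that fell (median 0.29; −0.59 with library totals). The ATP-gated channel P2rx7 stood at 44.6, 41.3 and 43.8 CPM in Ctrl, at 36.7, 35.6 and 34.7 in Cu-Cys, and at 449, 422 and 482 in Cadict. P2rx7 was 10.4-fold higher in Cadict than in Ctrl, a log2 fold change of 3.38 (SE 0.061; edgeR adjusted p = 3.11e-16) that was still 2.43 with library totals and 2.07 on the log2(TPM + 1) scale. In Cu-Cys it fell by 0.28. The other 2 ATP receptors named by size moved the opposite way in Cadict: P2ry2, a G protein-coupled receptor, fell by 1.58 and the channel P2rx4 fell by 1.42. Lamp1, a lysosomal membrane protein that also lines ATP-storing vesicles, stood at 819 to 850.5 CPM in Ctrl and 3651 to 3716 in Cadict, 4.40-fold higher with TMM. On the TPM scale its difference was smaller, with means of 939 in Ctrl and 1673 in Cadict. Entpd1, the ectoenzyme that degrades released ATP, had at most 3 counts per library.

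**Figure D4:**
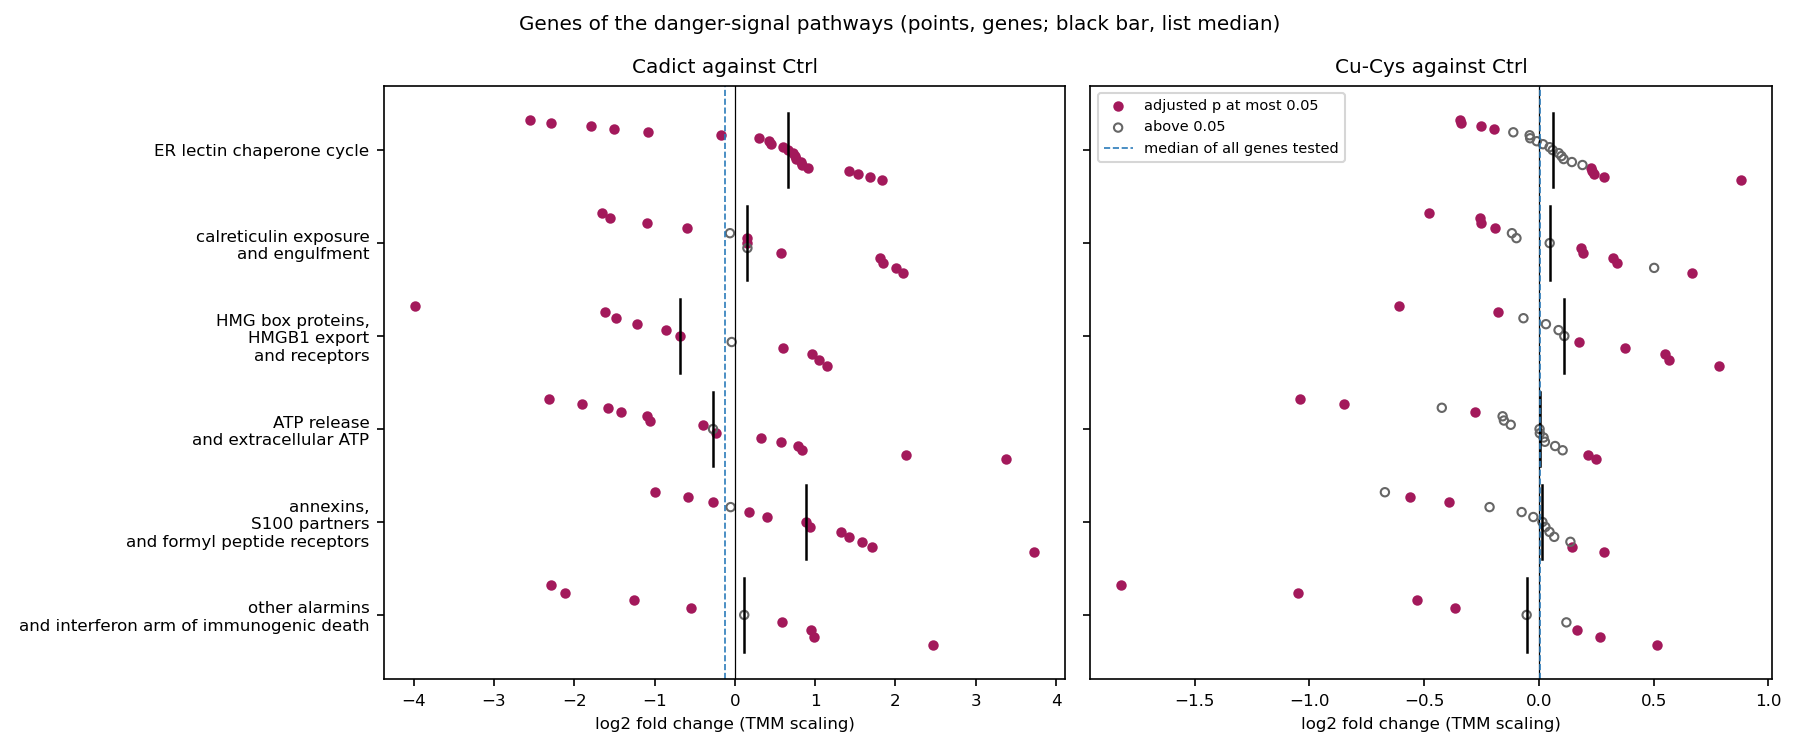
Log2 fold change (TMM scaling) of each tested gene in the 6 lists around the danger signals, in Cadict against Ctrl and Cu-Cys against Ctrl, on axes of different range. Points are genes, filled where the adjusted p was at most 0.05, black bars list medians and dashed lines the median of all genes tested. With library totals the list medians in Cadict against Ctrl lie below 0, from −1.64 to −0.066, where the median of all genes tested is −1.08.

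Among 9 further alarmins and interferon genes tested, 4 rose and 4 fell in Cadict against Ctrl (median 0.12), beside 40.6% and 47.1% of all genes. With library totals 1 rose and 6 fell (median −0.84, beside −1.08 for all genes). In Cu-Cys 3 rose and 4 fell (median −0.054). Cadict against Cu-Cys gave 4 that rose and 3 that fell (median 0.57; −0.31 with library totals). Hspd1, the mitochondrial chaperonin HSP60, stood at 1471, 1480.3 and 1507 CPM in Ctrl, at 2121, 2175 and 2068 in Cu-Cys, and at 8104, 8127 and 8483 in Cadict. It rose by 0.51 in Cu-Cys and by 2.47 in Cadict on the log2 scale, still 1.52 with library totals, and 42.1% of its stretches occur in other genes, 9 of 10 of them pseudogenes. Ifnar1, a chain of the type I interferon receptor, fell by 2.29 in Cadict and 0.37 in Cu-Cys, and Tlr3, a sensor of double-stranded RNA, fell by 2.11 and 0.53. Tfam, an HMG box protein that packs mitochondrial DNA, rose by 0.98 in Cadict with TMM but was −0.31 on the log2(TPM + 1) scale. Il1a, Il33 and Tslp had at most 4, 2 and 8 counts.

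By a fixed measure, the root mean square difference of centred log2 CPM over the 9 libraries among 8550 other genes, genes most like each member in pattern were as follows. For Calr they were Tef, Krt14 and Lgmn, at distances of 0.035 to 0.044. For Canx they were Hnrnpll, Celf1 and Ncbp2, for Pdia3 they were Emd, Atxn10 and Cfl2, and for Anxa1 they were Alg5, Selenof and Sar1b. Hmgb1 lay close to Morf4l1 and Pcna, and Hmgb2 to Prrx1, Eif4enif1 and Pigm. Panx1, the rarest member, had the least close neighbours, Chrac1, Dcps and Sys1, at 0.056 to 0.067. With only 3 group levels behind the 9 libraries, many genes come close to any such pattern.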

How the data were processed

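The 9 libraries were made from RNA of MC38 cells. The labels name a column RNA kit and DNA nanoball sequencing, whereas the study's methods name TRIzol and a Novaseq instrument. The submitters' processing notes name HISAT2 2.1.0, Bowtie2 2.3.4.3, RSEM 1.3.1 and the builds GRCm39 and GRCh38.p13, without their roles. The authors deposited one table that gives the estimated count (RSEM-style, not normalized), TPM, FPKM and a signal (counts after division by library size factors) for every gene in every library. Rounded to whole numbers, the counts were fitted with edgeR 4.0.16 under R 4.3.3 (filterByExpr, TMM, one quasi-likelihood fit of all 9 libraries), with p-values adjusted over 11949 genes. limma 3.58.1 served for log2(TPM + 1), log2(TPM + 0.1) and log2(FPKM + 1), and DESeq2 1.42.0 as another count test. The methods' DESeq threshold set the calls. SE is the log2 fold change divided by the root of F.

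Members and lists were chosen with earlier results of these data known. Named list genes were the 4 per list with the largest change in Cadict against Ctrl. They were taken from genes with an adjusted p of at most 0.05, a mean of at least 5 CPM and no overlap with Ctrl. The 4 genes with an ERSE, Tlr2, Tlr4, Eif2ak3, Sirpa, Bak1 and Casp8 are additions. A count of 0 allows 3 counts, or 0.130 to 0.261 CPM, for counting error only. Pairs of replicate libraries differed by more than sampling noise (chi-square per degree of freedom 1.88 to 23.1, highest for Cadict replicate 2), so no library was left out as a duplicate. Alternatives were another scaling, filter, tool, unit and threshold, a replicate block, and leaving out each library. The fit was tested on simulated counts in which few genes changed, as many up as down. That simulation could not check the library scaling on which most Cadict directions depend. Columns of group means were not used.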

Additional observations from a re-analysis of the deposited data

How the results depend on the processing

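Settings compared were those named in the methods. In Cadict against Ctrl, 2 members were called (2 higher, 0 lower). This count was 1 without a filter on low counts and 1 with at least 10 counts in every library. With DESeq2 (size factors or Wald test) Pdia3 was also called higher, at a log2 fold change of 1.04. With library totals, TPM (either pseudocount, with or without the filter) or FPKM the members called were 0 higher and 3 lower. Of all 11949 genes tested, 6148 were called lower with library totals, 6475 with log2(TPM + 1) and 4956 with FPKM. Without a limit on the fold, 6 members were counted (4 higher, 2 lower). In Cu-Cys against Ctrl, 0 became 3 (2 higher, 1 lower) without that limit. In Cadict against Cu-Cys, 1 became 2 with DESeq2 (size factors or Wald test, 2 higher), 2 with library totals, TPM or FPKM (0 higher, 2 lower), and 7 without the limit on the fold (5 higher, 2 lower). Of all 11949 genes tested, 5705 were called lower there with library totals, 5785 with log2(TPM + 1) and 4499 with FPKM. Leaving out 1 library kept the counts of called members at 2, at 0 and between 1 and 2. The higher value came without Cadict replicate 3 and added Pdia3 at 1.01. Leaving out Cadict replicate 2 or 3 brought further members past the test in Cu-Cys against Ctrl.

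Log2 fold changes that changed sign in Cadict against Ctrl were as follows. Calr was 0.047 with DESeq2 (size factors or Wald test). With library totals Pdia3 was −0.032, Hmgb1 −0.27, Hspa5 −0.13, Hsp90b1 −0.66 and Tlr4 −0.36, and with FPKM they were −0.040, −0.28, −0.14, −0.66 and −0.32. With log2(TPM + 1), whether filtered or not, Canx was −0.24, Pdia3 −0.39, Hmgb1 −0.62, Anxa1 −0.088, Hmgn1 −0.18, Tfam −0.31, Hspa5 −0.49, Hsp90b1 −1.01 and Tlr4 −0.66, and with log2(TPM + 0.1) Tfam was −0.32, Tlr4 −0.70 and the others within 0.01 of these. In Cadict against Cu-Cys, Calr was −0.70 and Hmgb1 −0.30 with library totals, −0.71 and −0.30 with FPKM, and −0.98 and −0.57 with TPM, where Canx was −0.27, Pdia3 −0.19 and Anxa1 −0.070. In Cu-Cys against Ctrl, TPM gave Hmgb1 −0.047, Hmgb2 −0.0075, Anxa1 −0.018 and Anxa5 −0.00057. Tlr2 was not tested with at least 10 counts in every library, a minimum it did not reach. The construction of these settings differs in the library scaling, which moved all genes together. The true amount of RNA per cell was not measured, so the settings cannot be ranked.

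Residuals of libraries with the same replicate number correlated between −0.19 and 0.16, so the numbers were not treated as pairs. With a replicate block the counts of called members stayed at 2, 0 and 1. Among members the test at 0.05 was lost there for Panx1 in Cu-Cys against Ctrl (log2 fold change 0.21; edgeR adjusted p = 0.0654). Depth limited Panx1 most, at 115 to 155 counts in Cadict.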
